A study of Mus musculus with 18 samples.

Results

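The nuclear genes for the subunits of the mitochondrial respiratory chain were followed across regulatory T cells of 3 genotypes in 2 states. They were taken from the 23420 genes of the deposited count table by their symbols: Nduf followed by a, b, c, s or v and a number, Sdha to Sdhd, every symbol starting with Uqcr, those starting with Cox4 to Cox8, and every symbol starting with Atp5. The rule found 84 genes. They comprised 35 genes of complex I, 4 of complex II, 8 of complex III, 20 of complex IV and 15 of complex V, and 2 whose products are not subunits. The 2 are Atp5s and Atp5sl, which carry the name of complex V. Ndufa4 and its paralog Ndufa4l2 were counted in complex IV, where the Ndufa4 protein sits, and Cox7a2l was counted there by its name. The genes for cytochrome c1 (Cyc1) and cytochrome c (Cycs) fall outside the rule, and the 13 subunits encoded by mitochondrial DNA were not analysed here.

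The respiratory chain moves electrons from NADH and succinate to oxygen and pumps protons across the inner mitochondrial membrane. Complex I oxidises NADH, complex II oxidises succinate, complex III passes electrons from ubiquinone to cytochrome c, complex IV reduces oxygen, and complex V uses the proton gradient to make ATP. Regulatory T cells, which hold other immune cells in check, are known for relying on this chain more than recently activated conventional T cells do.

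The study sequenced RNA from sorted mouse regulatory T cells of the genotypes FCre x C1+/+, FCre x C1fl/+ and FCre x C1fl/fl, written below as +/+, fl/+ and fl/fl. All 3 genotypes carry FCre, a name the labels do not spell out. Its promoter, and the strain, age and sex of the mice, are not stated in the labels or the series design. Cells of each genotype were collected as resting cells, called cTreg in the series design, and as effector cells, called eTreg or activated there. Each of the 6 groups has 3 libraries with the batch numbers 1 to 3, which makes 18 libraries. Nothing in the labels says that replicates are separate animals, so the p-values below measure the spread between these libraries, which may be technical.

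Library totals ran from 1658073 to 5756903 expected counts, and the subunit genes together took 0.953 to 1.11% of each. Every library held Foxp3, the defining transcription factor of regulatory T cells, at 211 to 479 CPM, which is the count scaled to the library's size. Of 7 regulatory T cell markers, Foxp3 included, 3 rose with the effector state in +/+, 3 in fl/+ and 1 in fl/fl. The summed level of 9 cycling-cell markers moved with state. It was 48.5 to 72.9 CPM in +/+ resting and 122 to 335 in +/+ effector libraries, 38.1 to 64.9 and 211 to 333 in fl/+, and 22.7 to 92.1 and 341 to 504 in fl/fl, and 7 of the 9 markers rose in +/+ and 9 of 9 in fl/+ and in fl/fl. Among markers of other cells, summed CPM was 9.64 to 94.7 for B cells, 2.98 to 11.5 for myeloid and dendritic cells, 25.3 to 105 for CD8 and NK cells, and 0 to 1.69 for red cells. In the CD8 and NK list Nkg7 rose with the effector state in all 3 genotypes, by 2.30, 2.61 and 2.15 in log2, and Cd8b1 fell in +/+ and fl/+. The part of cycling or other cells in the results below was not tested. In sorted bulk libraries, fewer cells of a kind and less RNA per cell cannot be told apart.

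Of the 84 genes, 76 passed the filter on low counts and were tested among 10630 genes. The 76 include Atp5s and Atp5sl, which are not subunits. All 8 that did not pass belong to complex IV. Cox4i2, Cox6a2, Cox7b2, Cox8b, Cox8c and Ndufa4l2 had no count in any library. A count of 0 allows a level of up to 3 counts, which is 0.497 to 1.81 CPM depending on the library, for counting error only. Cox6b2 had 24 counts and Cox7a1 had 10 over all 18 libraries. Each of the 8 is a tissue-restricted or second copy of a subunit whose general form was present: Cox4i1 beside Cox4i2, Cox6a1 beside Cox6a2, Cox6b1 beside Cox6b2, Cox7a2 beside Cox7a1, Cox7b beside Cox7b2, Cox8a beside Cox8b and Cox8c, and Ndufa4 beside Ndufa4l2.

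Levels of different genes were compared per transcript length, in FPKM. Over tested genes the median of the 18-library means was 102 FPKM for complex I, 99.02 for complex II, 162 for complex III, 342 for complex IV and 272 for complex V. Cox4i1, a subunit of complex IV with a role in its assembly and regulation, had the highest level of all 84 genes at 893 FPKM (736 to 974 over the 18 libraries). Cox7b was the lowest tested gene of complex IV at 120 FPKM (92.8 to 147). In complex III, Uqcrh, the hinge protein that helps cytochrome c1 and cytochrome c interact, stood at 596 FPKM (519 to 645). Its core protein gene Uqcrc2 stood at 76.8 FPKM (59.99 to 89.8). In complex V the c-subunit gene Atp5g2 averaged 492 FPKM (390 to 618) and Atp5k, for subunit e, averaged 138 FPKM (96.3 to 172). The range of Atp5g2 overlapped that of Atp5h, the peripheral stalk subunit d, at 418 to 523 FPKM.

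Within complex I the accessory subunit gene Ndufa3 was highest at 317 FPKM (262 to 364). Ndufa11, another accessory subunit of the membrane arm, was lowest at 21.2 FPKM (13.96 to 24.4). Its place depends on the length used for it. By counts summed over the 18 libraries it was not lowest, at 3335 against 1335 for Ndufb2. In complex II, Sdhb, the iron-sulfur subunit, averaged 168 FPKM (140 to 196), and Sdhc, a membrane anchor, averaged 20.5 FPKM (16.6 to 26.1). These pairs of highest and lowest genes did not overlap in any library. The 2 genes that are not subunits stood lower, Atp5sl at 13.5 FPKM (9.99 to 19.1) and Atp5s at 3.41 FPKM (0.55 to 6.66). The 3 genes Atp5g1, Atp5g2 and Atp5g3 encode the same mature c subunit of the ATP synthase rotor ring. Atp5g2 gave 52.9 to 60.5% of their summed FPKM over the 18 libraries, Atp5g3 gave 21.7 to 29.1% and Atp5g1 gave 14.6 to 19.7%, and this order held in each library.

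**Figure D1:**
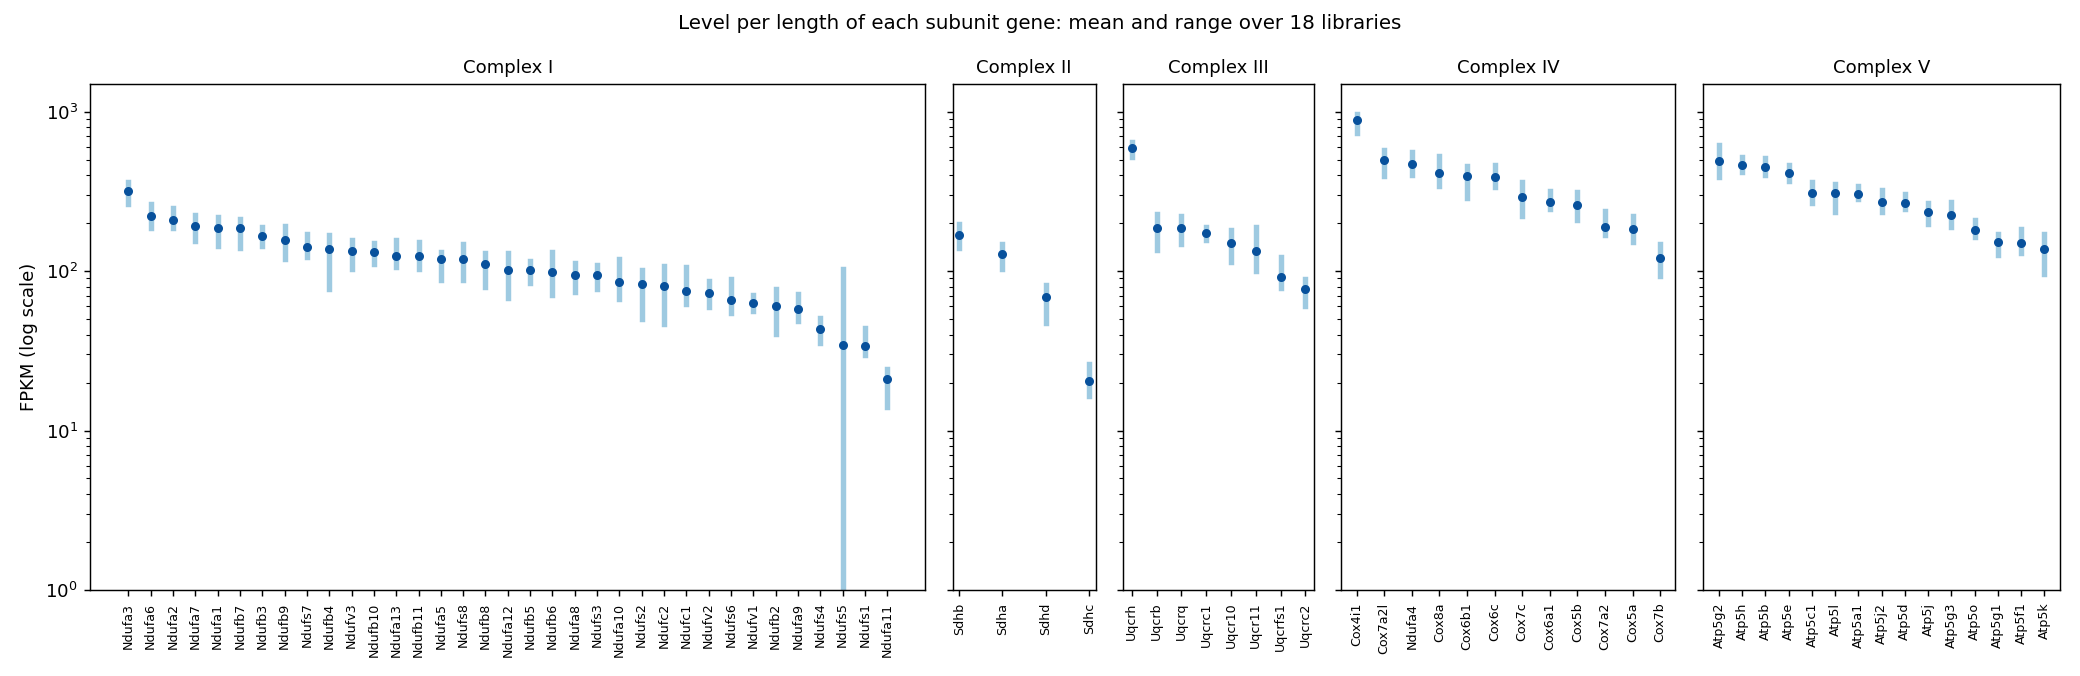
Level of each subunit gene in FPKM on a log axis, one panel per complex, genes ordered by level; dots are means over 18 libraries and bars span the lowest to the highest library. Genes averaging under 1 FPKM are not drawn, the bar of Ndufs5 is cut at the lower end of the axis because some of its libraries are at 0, and Cox4i1 stands highest at 893 FPKM.

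Summed over their members, the complexes kept close to the same level in all 6 groups. The highest library exceeded the lowest by 1.15 times for complex I, 1.23 for complex II, 1.205 for complex III and 1.18 for complexes IV and V. Complex I summed to 2558 ± 160 CPM in +/+ resting and 2504 ± 58.8 CPM in +/+ effector libraries (SD, n = 3). Complex II summed to 620 ± 46.8 and 618 ± 18.9 CPM in the same groups, and complex V to 3708 ± 247 and 3539 ± 149 CPM. For these complexes the state groups of +/+ overlapped. Complex III summed to 1064 ± 54.2 CPM in resting and 992 ± 22.9 CPM in effector +/+ libraries, with overlap. Complex IV was at 2395 to 2604 CPM in the resting and at 2206 to 2305 CPM in the effector +/+ libraries, without overlap. These sums include Cox7a2l, counted here by its name. With its CPM, given below, taken out of each library, the resting and effector groups of +/+ overlap. In fl/+ its effector libraries, at 2293, 2535 and 2355 CPM, overlapped its resting ones at 2334, 2232 and 2373 CPM. In fl/fl the effector libraries, at 2384, 2433 and 2416 CPM, fell within the range of the resting ones at 2224, 2495 and 2472 CPM.

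**Figure D2:**
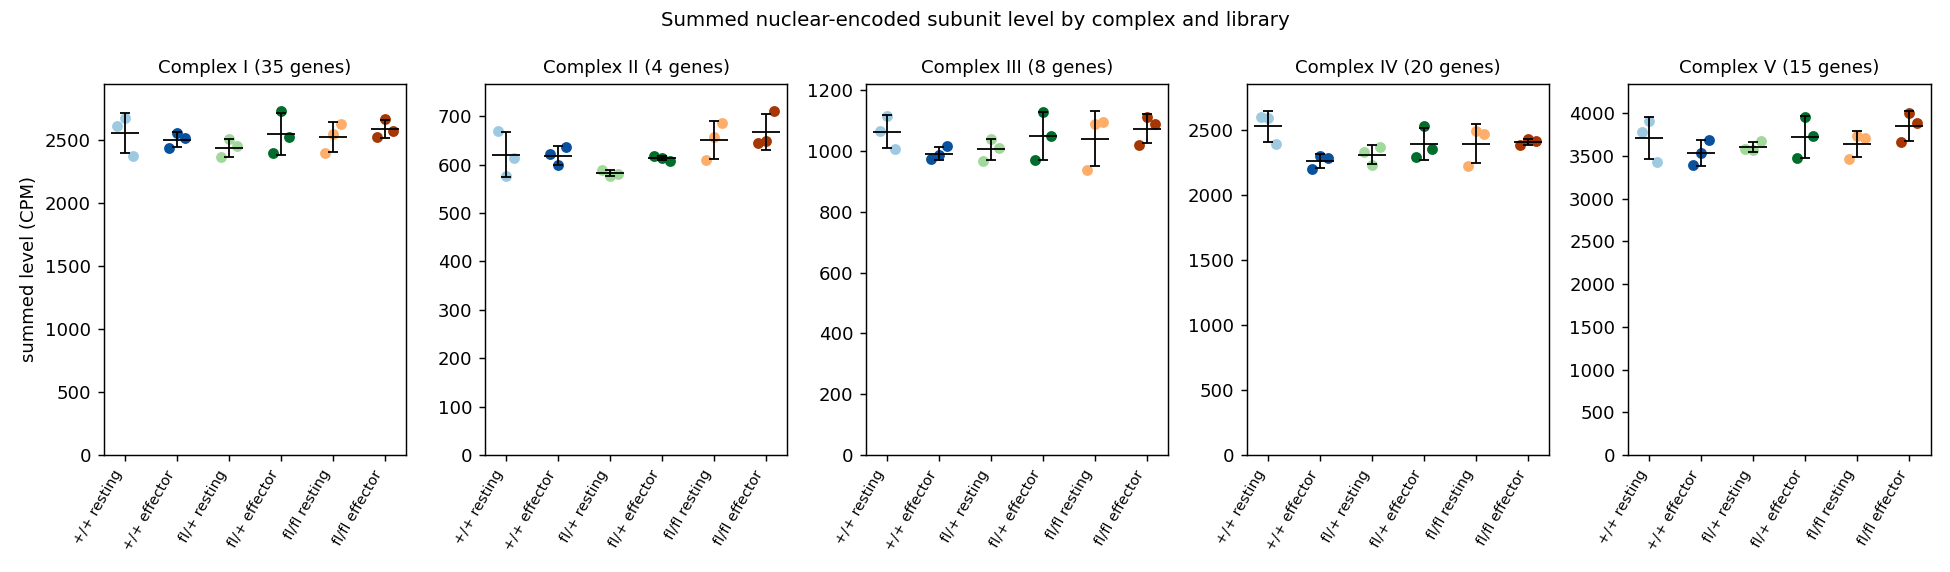
Summed CPM of the genes of each complex (vertical axis from 0) in the 6 groups of genotype and state; each dot is a library, the black dash is the mean of 3 and the bars are 1 SD. Complex IV, with Cox7a2l included, is the panel in which +/+ resting (2395 to 2604 CPM) and +/+ effector libraries (2206 to 2305 CPM) do not overlap. Without Cox7a2l they overlap.

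Between effector and resting cells 4 of 76 members were called in at least 1 genotype. They were Cox7a2l and Cox8a of complex IV, Ndufb9 of complex I and Uqcrb of complex III. The share of all genes called in at least 1 genotype is not given, and the shares for each genotype follow. A member that was not called may still have changed by a small amount. In +/+ cells 1 of 76 fell and none rose by edgeR's quasi-likelihood F test at a Benjamini-Hochberg adjusted p under 0.05 over all genes, while over all genes tested 6.5% were called lower and 9.49% higher. At an unadjusted p under 0.05, 1 was higher and 7 were lower, where 1644 and 1402 of the 10630 genes were. DESeq2 called the same gene and no other, and limma on the FPKM values called that gene lower and 4 higher. The shares of all genes above are edgeR's, and those of DESeq2 and limma are not given. The median log2 change was -0.04, against -0.01 over all genes, and 29 members were above 0 and 47 below. This direction rests on the scaling: with library totals alone the median was 0.06, against 0.09 over all genes, and 49 members were above 0. Members whose 3 effector libraries all lay on one side of the 3 resting ones numbered 5 higher and 11 lower, where the shares over all genes were 16.6% and 15.7%.

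In fl/+ cells 3 members rose and 1 fell, beside 9.72% of all genes called higher and 6.58% called lower. The median was 0.08, against -0.01 over all genes, with 55 of 76 above 0. There 13 members lay wholly above and 3 wholly below the resting libraries, and over all genes 18% and 16.1% did. In fl/fl cells 0 of 76 were called by edgeR, beside 5.01% of all genes higher and 1.33% lower. At an unadjusted p under 0.05, 8 were higher and 1 was lower in fl/fl, where 1218 and 809 of the 10630 genes were. DESeq2 called none, and limma on log2(FPKM + 1) called 9 higher. The fl/fl median was 0.06, against -0.01 over all genes, with 49 above 0, and 13 members lay wholly above and 2 wholly below, where 11.7% and 9.98% of all genes did. In each genotype the 95% interval of the change lay within 1 log2 unit of 0 for 74 of the 76 members, the exceptions being Ndufs5 and Atp5s, which have low or unsteady counts. Scaling by library totals moved the split of all called genes from 59.4 to 73.6% higher in +/+, from 59.6 to 74.8% in fl/+ and from 79.1 to 92.1% in fl/fl. The number of members called then became 2, 14 and 4. With the batch number as an additive block, the count of members called was 2 for +/+, 6 for fl/+ and 0 for fl/fl. With a block for each genotype and number the counts were 4, 7 and 1. The members that gained a call this way are named with their complexes below. Counts of members called under other settings stand here without the share of all genes called in the same setting. They are not read as a result about the members.

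**Figure D3:**
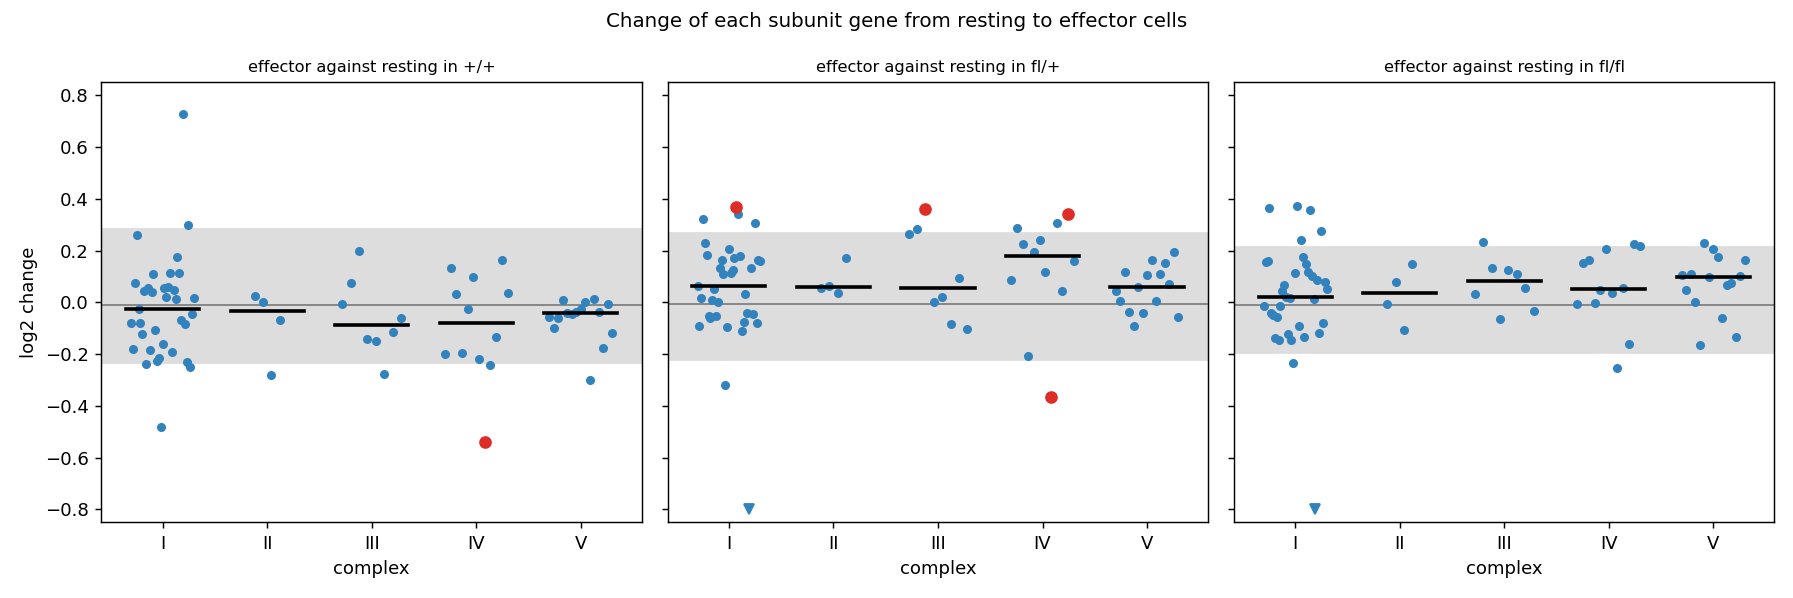
Log2 change from resting to effector cells of each tested subunit gene, one panel per genotype, by complex; red dots were called at adjusted p under 0.05, black lines are medians of a complex, and the grey band and line are the quartiles and median of all 10630 genes. Triangles mark Ndufs5 where it lies beyond the axis, and red dots are Cox7a2l in +/+ and Cox7a2l, Cox8a, Ndufb9 and Uqcrb in fl/+.

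Cox7a2l was lower in effector cells of +/+ and fl/+. Its protein, also known as SCAF1, can bind complexes III and IV and join them into a supercomplex, and some inbred mouse strains carry a shorter form. The gene lies at 17:83501917-83514333 in GRCm38.p6. The +/+ resting libraries were at 577, 588 and 556 CPM and the +/+ effector libraries at 374, 391 and 419 CPM. Each effector library was thus below each resting one, and the log2 change was -0.54 (SE 0.09, adjusted p = 0.000278 by edgeR). In fl/+ the resting libraries were at 560, 501 and 563 CPM and the effector ones at 418, 419 and 425 CPM, again without overlap, for a log2 change of -0.36 (SE 0.09, adjusted p = 0.0066 by edgeR). In fl/fl the resting libraries were at 517, 542 and 589 CPM and the effector ones at 411, 457 and 519 CPM, so that 1 effector library reached into the resting range. Its log2 change there was -0.25 (SE 0.09, 95% interval -0.44 to -0.07, adjusted p = 0.102 by edgeR).

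The smaller size of the change in fl/fl was not established. The fl/fl change less the +/+ change was 0.29 (SE 0.12, interval 0.03 to 0.55), with an adjusted p of 0.507 by edgeR, and the fl/+ change less the +/+ change was 0.18 (SE 0.12, adjusted p = 1.00 by edgeR). In fl/fl, Cox7a2l was called with a block for genotype and number (adjusted p = 0.0456 by edgeR) and without fl/fl effector replicate 3 (adjusted p = 0.0452 by edgeR). In fl/+ it was not called in log2(FPKM + 1) without a filter, at a change of -0.27 and adjusted p = 0.06 by limma. RSEM had given it a count that is not whole in 10 of 18 libraries, so some of its reads were shared with other sequences.

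Its paralog Cox7a2, the general form of subunit VIIa, did not pass the test in any genotype. It was at 135, 133 and 120 CPM in +/+ resting and at 106, 113 and 114 CPM in +/+ effector libraries, with a log2 change of -0.22 (SE 0.12, adjusted p = 0.221 by edgeR). Its changes in fl/+ and fl/fl were 0.12 and 0.03. The ratio of Cox7a2l to Cox7a2 in FPKM was 2.97 ± 0.117 in +/+ resting and 2.37 ± 0.0541 in +/+ effector libraries (SD, n = 3). It was 2.95 ± 0.282 and 2.15 ± 0.344 in fl/+, and 3.03 ± 0.239 and 2.46 ± 0.209 in fl/fl. No resting library of a genotype had a ratio below any effector library of that genotype. Cox7a2 overlaps Tmem30a in the annotation, and the sources used here do not state whether counting used strand.

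Cox8a was called higher in fl/+ effector cells. It encodes a small membrane subunit of complex IV and lies at 19:7215158-7217616. The fl/+ resting libraries were at 159, 164 and 163 CPM and the effector ones at 195, 212 and 209 CPM, without overlap. The log2 change was 0.34 (SE 0.09, adjusted p = 0.0116 by edgeR), and it was called in each of the 18 alternatives. The same gene was at 177, 173 and 169 CPM in +/+ resting and 189, 208 and 186 CPM in +/+ effector libraries, for a change of 0.16 (adjusted p = 0.252 by edgeR). In fl/fl it was at 154, 176 and 174 CPM in resting and 219, 183 and 184 CPM in effector libraries, for a change of 0.23 (adjusted p = 0.162 by edgeR). Its 3 effector libraries thus lay above its 3 resting ones in each genotype, and the test passed in fl/+.

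Promoter windows are shown for the genes called in opposite directions, Cox7a2l and Cox8a, and for the paralog Cox7a2. RefSeq windows of 300 bases, from 250 before to 50 after the annotated start in GRCm38.p6, matched 66 of the 84 genes, and where a gene had several windows the first was used. The stretches below are the first 280 bases of each window, 5′ to 3′ on the gene's strand, which is the minus strand for all 3. Capitals mark a match to one of 4 motifs searched on both strands: GCGCA and GCGC with 1 base of any kind between them for NRF1, CCGGAAG for ETS factors, AAGATGGC for YY1, and TATAAA.
Cox7a2l, chr17:83514304-83514583: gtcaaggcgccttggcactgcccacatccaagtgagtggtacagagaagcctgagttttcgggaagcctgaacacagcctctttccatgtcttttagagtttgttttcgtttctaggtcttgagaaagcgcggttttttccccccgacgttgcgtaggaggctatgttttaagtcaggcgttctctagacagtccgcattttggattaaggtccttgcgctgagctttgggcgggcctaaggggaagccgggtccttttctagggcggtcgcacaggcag
Cox7a2, chr9:79759824-79760103: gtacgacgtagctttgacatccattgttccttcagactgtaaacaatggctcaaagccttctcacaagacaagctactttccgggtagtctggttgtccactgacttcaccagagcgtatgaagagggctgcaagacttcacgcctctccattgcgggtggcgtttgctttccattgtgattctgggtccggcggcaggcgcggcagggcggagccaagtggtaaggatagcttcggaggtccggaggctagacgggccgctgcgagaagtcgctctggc
Cox8a, chr19:7217587-7217866: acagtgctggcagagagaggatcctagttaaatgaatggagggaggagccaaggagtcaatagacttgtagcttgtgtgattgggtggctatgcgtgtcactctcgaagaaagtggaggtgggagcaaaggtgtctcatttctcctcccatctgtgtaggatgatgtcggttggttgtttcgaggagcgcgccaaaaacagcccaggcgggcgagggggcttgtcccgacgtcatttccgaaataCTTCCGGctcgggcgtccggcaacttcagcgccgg
The whole windows of Cox7a2l and Cox7a2 hold no match to the 4 motifs. Cox7a2 is annotated at 9:79755241-79771422, so the start used for it lies inside the gene, and only this window was searched. The window of Cox8a holds 2 matches to the ETS letters, of which the first, starting at base 246 of the window, lies in the stretch shown. Among the 66 members with a window, 16 (24.2%) hold the NRF1 letters, against 4.78% of the windows of 27025 genes. The ETS letters were in 15 members (22.7%) and 9.12% of all windows, the YY1 letters in 8 (12.1%) and 2.88%, and TATAAA in 7 (10.6%) and 14.2%. The 27025 genes include those not tested here, and shares among tested genes were not counted. Whether the shares are particular to the members was thus not tested. A match to such letters is a description of the sequence and not a measured binding site.

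Ndufb9 and Uqcrb were the other members called in fl/+. Ndufb9 encodes an accessory subunit in the membrane arm of complex I and lies at 15:58933801-58939516. It was at 73.7, 70.4 and 71.4 CPM in fl/+ resting and 87.6, 94.8 and 96.5 CPM in fl/+ effector libraries, without overlap, for a log2 change of 0.37 (SE 0.11, adjusted p = 0.0200 by edgeR). Its changes were 0.11 in +/+ and 0.18 in fl/fl, neither called. Uqcrb encodes a subunit of complex III near the ubiquinone site and lies at 13:66900576-66905350. It was at 68.7, 66.5 and 55.4 CPM in fl/+ resting and 80.3, 86.5 and 79.8 CPM in fl/+ effector libraries, without overlap, for a change of 0.36 (SE 0.11, adjusted p = 0.0286 by edgeR). Its changes were 0.20 in +/+ and 0.13 in fl/fl, neither called. Both calls are close to the threshold. Without a filter on low counts, or without fl/+ effector replicate 3, neither gene was called; Ndufb9 was also not called without fl/+ resting replicate 2, and Uqcrb without fl/+ effector replicate 2 or resting replicate 3. In these fits the adjusted p by edgeR reached 0.078 for Ndufb9 and 0.111 for Uqcrb.

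**Figure D4:**
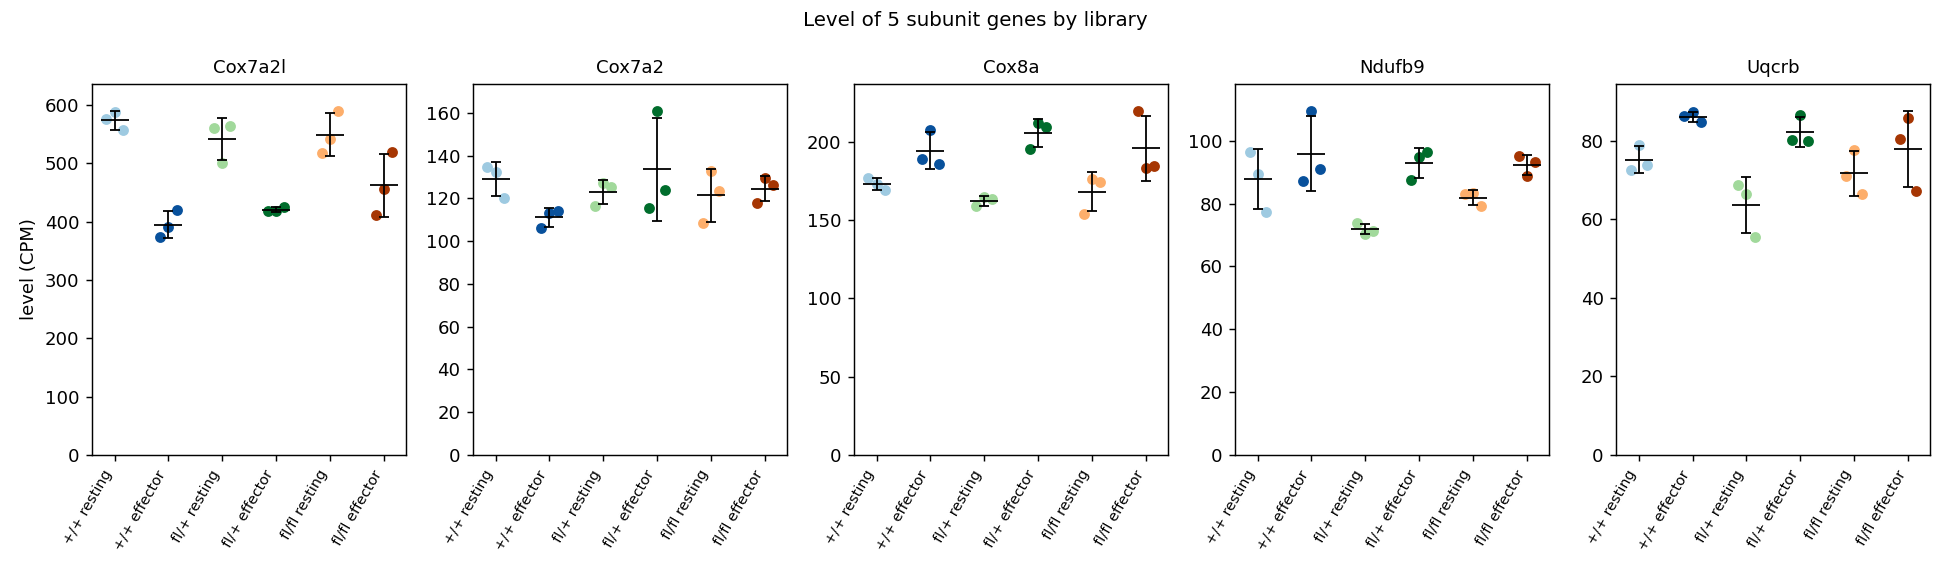
CPM in each library (vertical axis from 0) of the 4 subunit genes called between states and of Cox7a2, the paralog of Cox7a2l; dots are libraries, dashes are means of 3 and bars are 1 SD. Cox7a2l is lower in the effector libraries of +/+ and fl/+ (374 to 425 CPM) than in their resting ones (501 to 588 CPM), and Cox8a is higher in fl/+ effector (195 to 212 CPM) than in fl/+ resting libraries (159 to 164 CPM).

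In complex I, no core subunit gene was called between states. Ndufs8, an iron-sulfur subunit on the path to ubiquinone, had changes of 0.30, 0.31 and 0.28 in +/+, fl/+ and fl/fl, with adjusted p of 0.129, 0.110 and 0.240 by edgeR, and its effector libraries lay above its resting ones in +/+, fl/+ and fl/fl. With library totals it was called in +/+ and fl/+, and with a block for each genotype and number it was called higher in both (adjusted p = 0.0452 and 0.0378 by edgeR). Ndufv1, the flavoprotein that takes electrons from NADH, was at -0.25 in +/+ (adjusted p = 0.108 by edgeR). Ndufb4, an accessory subunit, had the lowest change of complex I in +/+ at -0.48 (SE 0.20, adjusted p = 0.110 by edgeR), from 57.1 ± 6.37 to 40.3 ± 10.3 CPM (SD, n = 3), and it was called with a block for each genotype and number (adjusted p = 0.0404 by edgeR). Ndufb3, another accessory subunit, was at -0.32 in fl/+ (adjusted p = 0.0572 by edgeR) and was called lower with the batch number as a block (adjusted p = 0.0490 by edgeR). The highest in fl/fl was Ndufb6, also accessory, at 0.37 (SE 0.13, adjusted p = 0.109 by edgeR), from 38.7 ± 3.67 to 50.4 ± 4.66 CPM.

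Ndufs5 marked the other ends of the range in complex I, at 0.73 in +/+, -1.56 in fl/+ and -1.15 in fl/fl. These values are uncertain. Ndufs5 was at 0 in +/+ resting replicate 1, fl/+ resting replicate 3 and fl/fl effector replicate 3, while the other libraries of these 3 groups reached 26.3, 31.02 and 12.9 CPM. Its count was not whole in each of the 15 libraries that had one. Counts like these arise where RSEM divides reads among near-identical copies. Altogether 11 members had counts that are not whole in over 9 of the 18 libraries: Atp5a1, Atp5b, Atp5f1, Atp5j, Cox7a2l, Ndufa13, Ndufs1, Ndufs5, Sdha, Uqcr10 and Uqcrq. Of these, only Ndufs5 had libraries at 0. The departure from a whole number can be small, as for Cox7a2l at 1449.99 and Ndufs1 at 213.98 counts in +/+ resting replicate 2.

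None of the 4 genes of complex II was called between states. Sdhc had the lowest change in each genotype's complex II, with -0.28 in +/+, 0.03 in fl/+ and -0.11 in fl/fl. Sdha, the flavoprotein that oxidises succinate, was highest in +/+ at 0.02, and Sdhd, the other membrane anchor, was highest in fl/+ and fl/fl at 0.17 and 0.15. In complex III, Uqcrfs1, the Rieske iron-sulfur protein, was lowest in +/+ at -0.28 (SE 0.12, adjusted p = 0.141 by edgeR), from 122 ± 3.84 to 101 ± 10.4 CPM (SD, n = 3). Uqcrq, a small accessory subunit, was lowest in fl/+ at -0.10. In fl/fl the core protein gene Uqcrc1 was lowest at -0.06 and the small subunit gene Uqcr11 highest at 0.23. None of these passed the test.

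Complex IV was at a median of -0.08 in +/+, 0.18 in fl/+ and 0.05 in fl/fl. With 12 genes tested, 5 were above 0 in +/+, 10 in fl/+ and 8 in fl/fl. Besides Cox7a2l, the genes at an unadjusted p under 0.05 in +/+ were Cox4i1 at -0.20 and Cox7b at -0.24. Besides Cox7a2l and Cox8a, those in fl/+ were Cox5a at 0.29, Cox5b at 0.23, Cox6c at 0.24 and Cox7b at 0.30, with Cox6a1 at -0.21. Their adjusted p ran from 0.0600 for Cox7b in fl/+ to 0.160 for Cox6a1 by edgeR, and none was called without a block. In fl/fl 3 of the 12 genes were higher and 1 was lower at an unadjusted p under 0.05 by edgeR, and 0 were called. With a block for each genotype and number, Cox7b and Cox5a were called higher in fl/+ (adjusted p = 0.0280 and 0.0406 by edgeR), and Cox7b also with the batch number as a block (adjusted p = 0.0394 by edgeR). Cox7b encodes a small subunit needed for assembly of complex IV. It was at 119, 124 and 109 CPM in +/+ resting and 100, 99.4 and 97.6 CPM in +/+ effector libraries. In fl/+ it was at 94.6, 106 and 85.5 CPM in resting and 110, 135 and 109 CPM in effector libraries, so its groups separated in opposite directions. The fl/+ change less the +/+ change was 0.55 (SE 0.15, unadjusted p = 0.00194, adjusted p = 1.00 by edgeR), which failed the correction.

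None of the 15 genes of complex V was called between states. The medians were -0.04 in +/+, 0.06 in fl/+ and 0.10 in fl/fl. Atp5h, subunit d of the peripheral stalk, had the lowest change in +/+ at -0.30 (SE 0.11, adjusted p = 0.0584 by edgeR), with resting libraries at 245, 273 and 223 CPM and effector ones at 200, 205 and 196 CPM. It was called lower with the batch number as a block (adjusted p = 0.0228 by edgeR) and without +/+ resting replicate 3. The highest in +/+ was Atp5j, coupling factor 6 of the stalk, at 0.01. In fl/+ and fl/fl the lowest was Atp5e, subunit epsilon, at -0.09 and -0.16. The highest were Atp5l, subunit g, at 0.19 in fl/+ and Atp5f1, subunit b of the stalk, at 0.23 in fl/fl (SE 0.10, adjusted p = 0.205 by edgeR). Atp5j overlaps Gabpa in the annotation, and 15 of the 84 genes overlap another gene of the table.

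Between genotypes, no subunit gene was called among the genes that passed the filter on low counts. Without that filter Ndufs5, whose counts are unsteady, was called lower in fl/fl and in fl/+ than in +/+ effector cells. By edgeR the count was 0 of 76 in fl/fl against +/+ in resting cells, where 0.696% of all genes were called, and 0 in effector cells, where 2.81% were. It was 0 for fl/+ against +/+, with 0.0847% of all genes called in resting and 0.00941% in effector cells. It was 0 for fl/fl against fl/+, with 0.0282% in resting and 0.677% in effector cells. The state change also did not differ for any member by the test, with 0.0188% of all genes called for fl/+ less +/+ and 0% for fl/fl less +/+. At an unadjusted p under 0.05 the member counts were 0 in fl/fl against +/+ resting and 8 higher in effector. Over all 10630 genes they were 501 higher and 372 lower, and 927 and 907. For fl/+ against +/+ the members were 4 lower in resting, and 2 higher and 1 lower in effector. Over all genes the counts were 409 and 260, and 307 and 274. For fl/fl against fl/+ the members were 1 higher in resting, and 2 higher and 1 lower in effector. Over all genes the counts were 238 and 275, and 590 and 660. For the differences of state change the members were 4 higher in fl/+ and 3 higher in fl/fl. Over all genes the counts were 180 and 163, and 463 and 490. DESeq2 and limma on FPKM also called 0 members in each of these. The comparisons with +/+ share the +/+ libraries, so their values are given side by side and not as independent results. In each of the 6 genotype comparisons 74 of 76 intervals lay within 1 log2 unit of 0.

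In resting cells fl/+ libraries tended to lie lower than +/+ ones without a call. The median log2 difference was -0.10, against -0.01 over all genes. Below 0 were 62 of 76 members, where 5494 of the 10630 genes were. The 62 included all 12 of complex IV and all 4 of complex II, and 0 of these 4 lay wholly below the +/+ libraries. Members are read from the same libraries, so such counts are not independent observations. Of the members 14 lay wholly below and 0 wholly above the +/+ libraries, where 4.93% and 5.38% of all genes did. Cox6b1, the subunit of complex IV that faces the cytochrome c side, was at 182, 179 and 160 CPM in +/+ resting and 148, 128 and 136 CPM in fl/+ resting libraries, for a difference of -0.34 (SE 0.10, adjusted p = 0.294 by edgeR). Ndufb9, Cox7b and Ndufb5, an accessory subunit of complex I, stood at -0.29, -0.30 and -0.24. Since these resting libraries are also the base of the state change in fl/+ and +/+, the higher fl/+ medians given above are not a separate result. The fl/fl resting libraries had a median difference of -0.05 from +/+, with 27 members above 0 and 49 below.

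In effector cells the members of fl/fl were at a median of 0.08 above +/+, against 0.01 over all genes, with 52 above 0. There 12 lay wholly above and 2 wholly below the +/+ libraries, and over all genes 10.3% and 10.2% did. Ndufa10, an accessory subunit of complex I, was at 83.9, 78.2 and 87.2 CPM in +/+ effector and 106, 97.0 and 129 CPM in fl/fl effector libraries, for a difference of 0.40 (SE 0.15, adjusted p = 0.152 by edgeR). Atp5a1, Atp5b and Atp5c1, the alpha, beta and gamma subunits of complex V, stood at 0.18, 0.18 and 0.20, with adjusted p from 0.212 to 0.269 by edgeR. Of the 15 genes of complex V, 12 were above 0 and 3 below, the lowest at -0.21. Mean FPKM in +/+ and fl/fl effector libraries was 279 and 275 for Atp5d, subunit delta, and 431 and 404 for Atp5e, with overlap. The fl/+ effector libraries had a median of 0.06 above +/+, with 51 members above 0. The 9 cycling-cell markers were above 0 in fl/fl against +/+ effector cells, 2 of them called, and their part in these values was not tested. The 7 regulatory T cell markers were all below 0 in that comparison, 2 of them called, and their summed level was 3098 to 3638 CPM in +/+ and 2196 to 2831 CPM in fl/fl effector libraries, without overlap. Their part was not tested either.

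**Figure D5:**
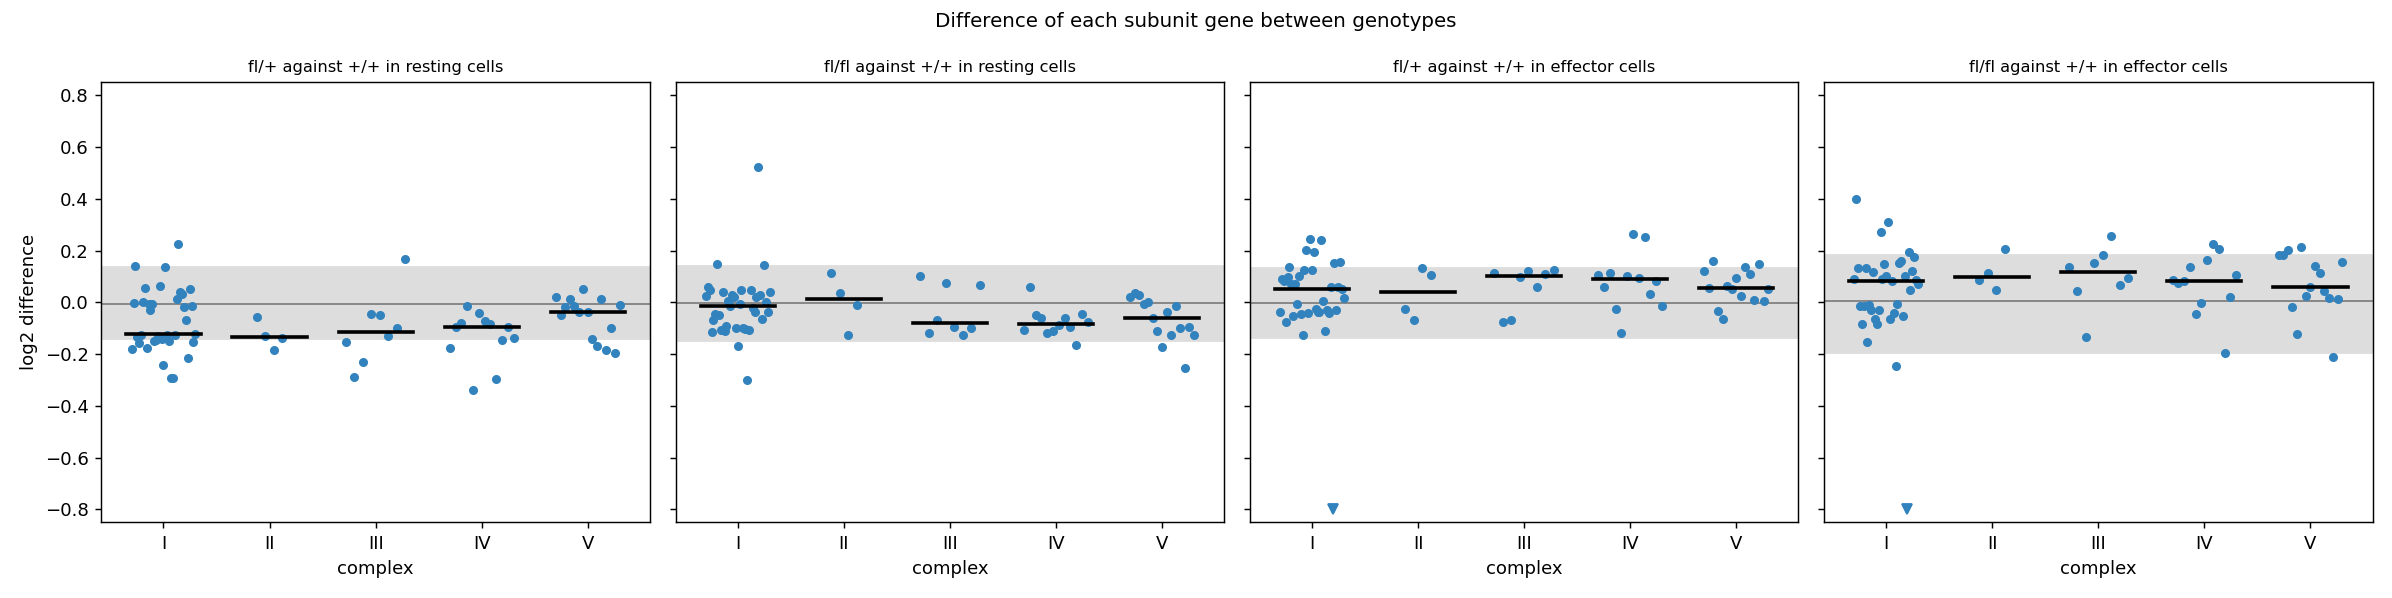
Log2 difference of each tested subunit gene from +/+ for fl/+ and fl/fl in resting and effector cells, by complex; no gene was called, black lines are medians of a complex, and the grey band and line are the quartiles and median of all 10630 genes. Triangles mark Ndufs5 beyond the axis. In fl/+ resting cells 62 of the 76 tested genes are below 0, counting Atp5s and Atp5sl, which are not drawn. Of all 10630 genes 5494 are.

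Other genes of oxidative metabolism were read from lists. The counts below stand beside the shares of all genes called between states: 9.49% higher and 6.5% lower in +/+, 9.72% and 6.58% in fl/+, and 5.01% and 1.33% in fl/fl. Of the 2 tested among Cyc1, Cycs and Cyct, none was called between states. Cycs, cytochrome c, was at 94.3 ± 4.23 CPM in +/+ resting and 76.8 ± 2.22 CPM in +/+ effector libraries (SD, n = 3), a change of -0.30 (SE 0.11, adjusted p = 0.0603 by edgeR). Of 4 tested genes for the ATP synthase inhibitor and the ADP/ATP and phosphate carriers, 2 rose in each genotype. Slc25a4, an ADP/ATP carrier, rose by 0.56, 0.63 and 0.74 in +/+, fl/+ and fl/fl, with adjusted p of 0.00876, 0.00371 and 0.00351 by edgeR. It went from 78.2 ± 12.4 to 116 ± 3.40 CPM in +/+ (SD, n = 3), where the call was lost without +/+ resting replicate 3 (adjusted p = 0.0543 by edgeR). Atpif1, whose protein blocks reverse action of complex V, rose by 0.61, 0.64 and 0.69, with adjusted p of 0.0339, 0.0178 and 0.0322 by edgeR. It went from 21.6 ± 5.16 to 33.3 ± 4.46 CPM in +/+, and its call was lost in 4, 3 and 4 of 6 fits that each left out a library of +/+, fl/+ and fl/fl. The more abundant carriers Slc25a5 for ADP and ATP and Slc25a3 for phosphate were not called.

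Of 22 tested genes of the citric acid cycle and pyruvate dehydrogenase, 1 rose and 2 fell in +/+, and 1 rose and 1 fell in fl/+. These counts are near the shares over all genes. The fl/fl count was 0 by edgeR. At an unadjusted p under 0.05, 4 of the 22 were higher in fl/fl, where 1218 of the 10630 genes were. Pdk1 and Pdk3 encode kinases that inhibit pyruvate dehydrogenase, and they moved in opposite directions. Pdk1 fell by 0.85 in +/+ (adjusted p = 0.000984 by edgeR) and by 0.78 in fl/+ (adjusted p = 0.00177 by edgeR), from 142 ± 17.9 to 77.6 ± 19.2 CPM in +/+. In fl/fl it was at 144 ± 17.02 CPM in resting and 137 ± 23.2 CPM in effector libraries, with a change of -0.08 that was not called. The smaller change of Pdk1 in fl/fl was not established. The fl/fl change less the +/+ change was called for none of the 22 genes (lowest adjusted p = 0.351 by edgeR). In effector cells Pdk1 was higher in fl/fl than in +/+ by 0.79 (SE 0.16, adjusted p = 0.0125 by edgeR) and than in fl/+ by 0.79 (adjusted p = 0.0356 by edgeR). The first of these calls was lost without +/+ effector replicate 1 or 2 and without fl/fl effector replicate 2 or 3 (adjusted p = 0.0518 to 0.113 by edgeR), and with only the groups compared in the fit. The second was lost without fl/+ effector replicate 1 or 3, without fl/fl effector replicate 2 or 3 (adjusted p = 0.0954 to 0.226 by edgeR), with only the groups compared and in the FPKM settings. The 2 state calls of Pdk1 were kept in 18 of 18 alternatives each. Pdk3 rose by 0.86 in +/+, a call kept in 18 of 18 alternatives, and by 0.53 in fl/+, kept in 12. Pdha1, the catalytic alpha subunit of pyruvate dehydrogenase, fell by 0.35 in +/+ (adjusted p = 0.0146 by edgeR), a call kept in 9 of 18 alternatives.

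Among 40 tested assembly factors, 1 rose and 1 fell in +/+ and 2 rose in fl/+, smaller shares than over all genes. The fl/fl count was 0 by edgeR. At an unadjusted p under 0.05, 1 of the 40 was lower in fl/fl, where 809 of the 10630 genes were. Tmem126a, which takes part in complex I assembly, rose by 0.67 and Cox10, a heme farnesyltransferase for complex IV, fell by 0.63 in +/+. Surf1 and Cep89, both linked to complex IV, rose by 0.47 and 0.97 in fl/+. Of 13 tested ubiquinone synthesis genes, Pdss1 fell by 1.199 and Coq10a rose by 1.12 in +/+, and Adck3 rose by 1.10 in fl/fl. Of 14 tested regulators of mitochondrial genes, 2 fell in +/+ and 3 in fl/+, and the fl/fl count was 0 by edgeR. Myc, a transcription factor of growth, fell by 0.77 in +/+ and 0.64 in fl/+, and Polg2, the accessory subunit of the mitochondrial DNA polymerase, fell by 0.81 and 0.65. Pprc1, a coactivator for NRF1, fell by 0.59 in fl/+. None of the 14 was at an unadjusted p under 0.05 in fl/fl. The Cox10 call and the +/+ calls of Myc and Polg2 were kept in 17, 18 and 17 of 18 alternatives. The Tmem126a, Surf1, Cep89, Pdss1, Coq10a and Adck3 calls were kept in 14, 13, 14, 10, 8 and 12, the fl/+ calls of Myc and Polg2 in 14 and 10, and the Pprc1 call in 15.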

How the data were processed

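Expected counts and FPKM per gene symbol and library were deposited by the authors. Tools credited in the submitters' processing notes are RSEM (1.2.8), STAR (2.6.0) and bcl2fastq (2.17.1.14), and the build is mm10. The annotation, strand and filters of that step are not stated there. A share of 29.4% of the expected counts above 0 was not whole (tolerance 0.005), since RSEM divides shared reads, and all were rounded.

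Counts were fitted in R 4.3.3 with edgeR 4.0.16 (TMM scaling, filterByExpr by group, 6 group means over 18 libraries). Changes were tested with its quasi-likelihood F test and called where the p, adjusted after Benjamini and Hochberg, was under 0.05 over the 10630 genes kept. CPM values use TMM-scaled totals, with factors of 0.939 to 1.06. Rn45s, a ribosomal RNA gene, held 10.9 to 16.4% of the counts. Libraries of 1 group differed by a chi-square per gene of 3.36 to 6.67, more than sampling noise. Alternatives were DESeq2 1.42.0, limma 3.58.1 on log2(FPKM + 1) and log2(FPKM + 0.1), other scalings and filters, left-out libraries and blocks. The level of the targeted gene is not reported here.

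The labels call the replicate number a batch. Residuals of the same number and genotype correlated at 0.206 on average (9 of 9 pairs over 0.1), and those of the same number in other genotypes at 0.0657 (11 of 36 pairs over 0.1).

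The 84 members and the gene lists were chosen with earlier results of these data known. Named members are those called, the highest and lowest change of each complex and genotype, paralog sets, and the highest and lowest level of each complex. Further members named for an unadjusted p under 0.05 or for the widest separation (such as Cox6b1, Ndufa10 and Ndufs8), the genotype differences of Pdk1, and Cycs, Slc25a3, Slc25a5, Nkg7 and Cd8b1, were chosen after their values were seen. Gene positions and promoters are RefSeq's, on GRCm38.p6, matched by symbol for 81 members and by synonym for 3.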

Additional observations from a re-analysis of the deposited data

How the results depend on the processing

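Cox7a2l in +/+ was called in 18 of 18 alternatives (-0.59 to -0.44) and Cox8a in fl/+ in 18 of 18 (0.33 to 0.44). Counts of called members in the state comparisons moved with the scaling and unit. In +/+ the count of 1 became 2 with library totals, 2 without a filter, 5 in log2(FPKM + 1) and in log2(FPKM + 0.1), and 3 in log2(FPKM + 1) without a filter. In fl/+ the count of 4 became 14, 17, 16 and 12 with library totals and the 3 FPKM settings in that order, and in fl/fl the count of 0 became 4, 9, 9 and 7. The share of all genes called in each setting is not given here, so these counts show only that the calls depend on the setting. With library totals and the FPKM settings the median of all genes moved from -0.01 to between 0.07 and 0.09 in each genotype. Leaving out each library in turn gave 1 to 2 members in +/+, 2 to 4 in fl/+ and 0 to 1 in fl/fl. The lowest count in fl/+ came without fl/+ effector replicate 3, the highest in +/+ without +/+ resting replicate 3, and the call in fl/fl without fl/fl effector replicate 3. Without a filter on low counts the count in fl/+ was 3, with Ndufs5 called and Ndufb9 and Uqcrb not. In that setting 1 member, Ndufs5, was called in the fl/fl state comparison, in fl/fl and in fl/+ against +/+ effector cells, and in both differences of state change. The cause was not tested. In the other alternatives of the genotype comparisons and differences 0 members were called.

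The replicate number pairs the libraries as a batch. With it as a replicate block, members called were 2 in +/+, and with a block for each genotype and number they were 4, 7 and 1 in +/+, fl/+ and fl/fl. The block changed no count of called members in the genotype comparisons.

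Among the members named for their change between states, sign changed for 6 that were not called in the chosen design. In fl/+, Atp5e was at 0.0068 with library totals, 0.00056 in both log2(FPKM + 1) settings and 0.00057 in log2(FPKM + 0.1). Ndufs5 in fl/+ was at 0.23 in log2(FPKM + 1) with and without a filter and at 1.26 in log2(FPKM + 0.1). In fl/fl, Uqcrc1 was at 0.021 with library totals, 0.035 in the log2(FPKM + 1) settings and 0.035 in log2(FPKM + 0.1), and Sdhc was at 0.0083 in log2(FPKM + 1) and 0.0086 in log2(FPKM + 0.1). Leaving out each library gave ranges of -0.057 to 0.10 for Atp5j and -0.054 to 0.090 for Sdha in +/+, -0.14 to 0.021 for Atp5e, -2.04 to 0.43 for Ndufs5 and -0.059 to 0.24 for Sdhc in fl/+, and -0.19 to 0.029 for Sdhc in fl/fl.

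With 3 libraries a group and a median of 3154386 expected counts, the median standard error of a member's state change was 0.11 to 0.12 in log2, so changes near 0.2 were mostly not detectable.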
